A study of Homo sapiens with 12 samples.

Results

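The genes described here are 10 effectors of the ATF4-CHOP arm of the stress response, ATF4, DDIT3, ATF3, ATF5, TRIB3, PPP1R15A, NUPR1, DDIT4, SESN2 and CHAC1. They were matched by gene name, and all 10 were found among the 29657 genes listed for SCC15 and the 31055 listed for SCC25. SCC15 and SCC25 are human cell lines of head and neck squamous cell carcinoma (HNSCC), given as wild type in the labels. RNA-seq libraries were made after 24 h with squamocin or with the solvent DMSO, in 3 libraries for each treatment of each cell line (12 in all). The labels call the treatment ACGs, for annonaceous acetogenins, the compound class of squamocin, and the study's methods give the dose as 10 µg/mL. Nothing states whether the 3 libraries of a group came from separate cultures, so the p-values measure the spread between these libraries, which may be technical.

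Stressed cells phosphorylate the translation factor eIF2, through PERK for unfolded proteins in the endoplasmic reticulum (ER), GCN2 for missing amino acids, PKR for double-stranded RNA and HRI for heme shortage or, through OMA1 and DELE1, for mitochondrial damage. Most translation then falls while that of ATF4 rises, and ATF4 induces amino acid and redox genes together with a second tier of regulators, among them DDIT3, which encodes CHOP. Prolonged signalling through CHOP is known for its link to cell death, and PPP1R15A closes the loop by restoring eIF2.

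Genes of this arm are known to carry short response elements near their start sites, so the members' promoters were searched in the RefSeq sequences of GRCh38.p14 (250 bases before to 50 after each annotated start). Of the 10 genes, 9 had at least 1 window, 16 in all, and NUPR1 had no entry. The core of the C/EBP-ATF response element, TGATGNAA on either strand, was found in windows of 2 members, ATF3 and CHAC1, and in 4.46% of the 27305 genes with a window. The cAMP response element TGACGTCA was found in PPP1R15A and in 2.25% of all genes, and the ER stress response element (CCAAT and CCACG set 9 bases apart) in 0 members and 0.0916% of genes. The 3 promoters with a match are shown, with the matched letters in capitals and the 250 bases before the start printed on the strand of the gene. In CHAC1 the match lies on the opposite strand and reads TGATGCAA there. A match is a description of these letters and not evidence of a bound factor.
ATF3, chr1:212565157-212565406, + strand: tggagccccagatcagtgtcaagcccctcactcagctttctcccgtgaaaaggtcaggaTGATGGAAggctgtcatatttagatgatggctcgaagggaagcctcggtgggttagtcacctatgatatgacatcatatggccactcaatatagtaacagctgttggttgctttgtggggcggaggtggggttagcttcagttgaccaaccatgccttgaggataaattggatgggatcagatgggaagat
CHAC1, chr15:40953221-40953470, + strand: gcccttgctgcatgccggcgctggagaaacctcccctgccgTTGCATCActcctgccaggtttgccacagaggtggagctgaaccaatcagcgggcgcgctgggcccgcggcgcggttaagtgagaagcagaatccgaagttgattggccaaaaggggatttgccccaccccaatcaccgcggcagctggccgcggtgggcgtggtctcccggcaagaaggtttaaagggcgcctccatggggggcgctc
PPP1R15A, chr19:48872171-48872420, + strand: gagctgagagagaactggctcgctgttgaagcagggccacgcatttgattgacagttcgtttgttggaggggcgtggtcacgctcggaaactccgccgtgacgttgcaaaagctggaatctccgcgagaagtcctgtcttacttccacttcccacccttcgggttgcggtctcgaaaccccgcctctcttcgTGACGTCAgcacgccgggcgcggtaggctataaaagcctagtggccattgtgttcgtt

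The values are normalized counts, which are reads per gene divided by 1 size factor for each library, set within each cell line. The libraries held between 16665563 and 22748845 recovered reads on genes. SCC15 with squamocin, replicate 3, stood apart, with a chi-square per degree of freedom of 71.6 and 63.5 against its fellow replicates and 1.72 to 11.0 for the other pairs, and a KRT17 value of 354162 normalized counts against 203624 and 222988 in replicates 1 and 2. The members' results in SCC15 are therefore also given without it, and for the related lists the changes are given together. Of 8 epithelial markers, KRT5 (9.50), TP63 (17.5), EPCAM (11.4) and DSG3 (1.44 normalized counts) were near 0 in SCC15 with DMSO. The others were present in SCC15 with DMSO, KRT17 with 112298, KRT14 with 759, CDH1 with 525 and KRT6A with 134. In SCC25 with DMSO these had 6064, 372, 5204 and 97.8. A mean of at least 10, the filter of the tests below, was reached by 6 of 8 markers in SCC15 and 8 of 8 in SCC25. TP63 and EPCAM were among the 6. Some squamous markers are thus near 0 and others present in the libraries labelled SCC15. The identity of the line was not checked beyond these values. Markers of leukocytes were at or below 22.8 normalized counts in DMSO in both lines. Of the endothelial and fibroblast markers, PECAM1 fell from 166 to 72.0 normalized counts in SCC15 and from 75.3 to 2.38 in SCC25, VWF fell in SCC25, COL3A1 fell from 445 to 259 in SCC15 and COL1A1 rose from 576 to 938 in SCC25. Their part in the results was not tested. The share of reads on mitochondrial genes was 0.796% to 0.959% with squamocin and 1.69% to 1.73% with DMSO in SCC15, and 2.45% to 3.50% against 4.37% to 4.54% in SCC25; its part in the results below was not tested.

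Squamocin raised 9 of the 10 stress effectors in each cell line, but not the same 9. In SCC15 the exception was ATF5, which fell, and in SCC25 it was CHAC1, which did not pass the test. The median log2 fold change of the 10 genes was 2.49 in SCC15 and 1.34 in SCC25, beside 0.012 and -0.015 over all genes tested. Calls were made by limma on log2(normalized count + 1), at a Benjamini-Hochberg adjusted p under 0.05 over the 15902 genes of SCC15 or the 16539 of SCC25 with a mean of at least 10, a filter that all 10 members passed. So many genes changed that a call alone is common, since 30.9% of all genes tested were higher and 30.0% lower in SCC15, and 38.3% were higher and 38.5% lower in SCC25. Higher by more than 1 on the log2 scale were 8 members in SCC15 and 5 in SCC25, against 12.6% and 13.9% of all genes. All squamocin libraries lay above all DMSO libraries for 9 members in SCC15 and 9 in SCC25, against 35.7% and 39.4% of all genes. Higher in both cell lines were 8 members, against 22.1% of the 14454 genes tested in both.

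**Figure D1:**
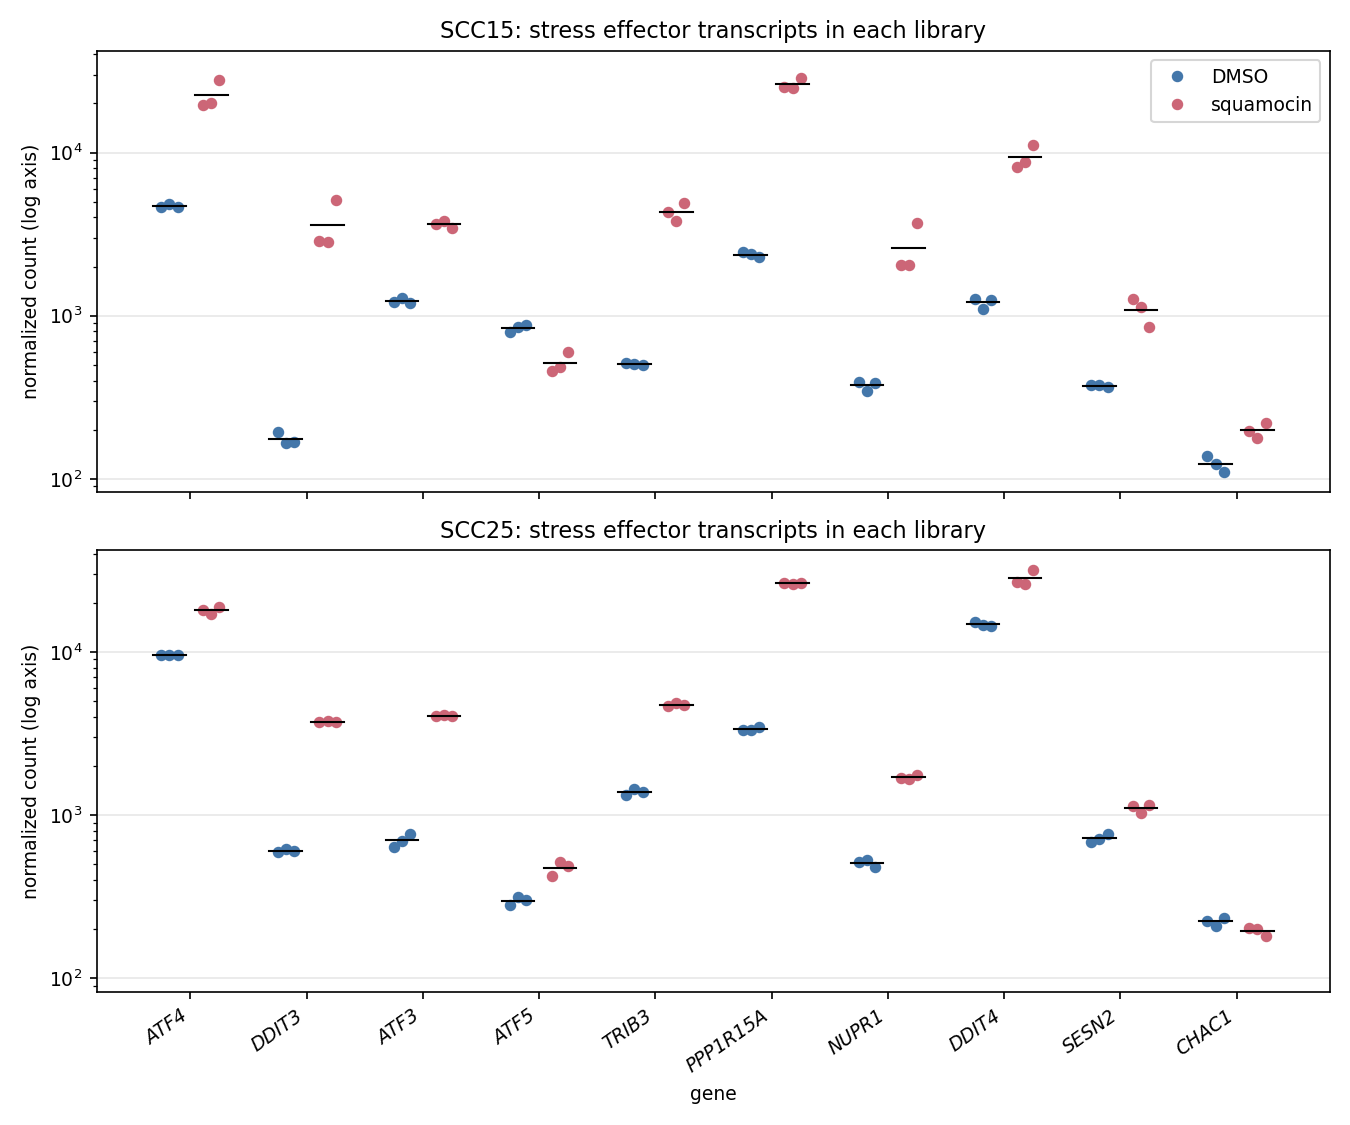
Normalized counts (log axis) of the 10 stress effector genes in each of the 12 libraries, DMSO in blue and squamocin in red, with a black line at each mean of 3 libraries. The treatments do not overlap for any of the 10 genes in either line; squamocin lies lower for ATF5 in SCC15 and for CHAC1 in SCC25, of which the second did not pass the test.

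ATF4 (ENSG00000128272, chr22:39519695-39522685, + strand) encodes the activator at the head of the arm. In SCC15 its normalized counts were 4623, 4807 and 4636 with DMSO and 19659, 20227 and 27711 with squamocin. In SCC25 they were 9527, 9581 and 9549 with DMSO and 18122, 17128 and 18745 with squamocin. ATF4 thus rose in both lines, with replicate 3 the highest in SCC15, and the SCC25 cells started from the higher level. Its change on the log2 scale was 2.25 ± 0.14 (SE, n = 3 against 3, limma adjusted p = 3.21e-05) in SCC15, 2.09 without replicate 3, and 0.91 ± 0.04 (adjusted p = 5.39e-10) in SCC25. The most abundant listed copy of ATF4, ATF4P3, had 22.2 and 23.0 normalized counts with squamocin, and how reads shared with copies were assigned was not tested.

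DDIT3 (ENSG00000175197, chr12:57516588-57521737, - strand) encodes CHOP, the transcription factor known to favour death under unresolved stress. Its normalized counts in SCC15 were 193, 167 and 168 with DMSO and 2877, 2820 and 5142 with squamocin. The SCC25 libraries held 593, 621 and 600 with DMSO and 3748, 3759 and 3732 with squamocin. DDIT3 had the largest rise of the 10 genes in SCC15, where it ranked 34 of 15902 genes by log2 fold change, and replicate 3 was again highest. The ratio of the means was 20.5 in SCC15 and 6.20 in SCC25. The log2 fold change was 4.30 ± 0.23 (adjusted p = 1.62e-05) in SCC15, 4.01 without replicate 3, and 2.63 ± 0.05 (adjusted p = 1.66e-13) in SCC25. The span of DDIT3 shares 982 bases with MARS on the opposite strand, which rose from 3005 to 6043 normalized counts in SCC15 and from 3717 to 4563 in SCC25, and 1028 bases with MBD6. It also contains the microRNA gene MIR616. Whether the authors counted by strand is not given in the sources used here, so reads in the shared bases could belong to either gene.

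ATF3 (ENSG00000162772, chr1:212565334-212620777, + strand) encodes a transcription factor that dampens or redirects stress transcription. Normalized counts of ATF3 in SCC15 were 1221, 1278 and 1203 with DMSO and 3672, 3780 and 3440 with squamocin. In SCC25 they were 642, 697 and 764 with DMSO and 4065, 4134 and 4028 with squamocin. ATF3 rose in both lines from a higher starting level in SCC15. Its log2 fold change was 1.56 ± 0.08 (adjusted p = 1.50e-05) in SCC15, 1.59 without replicate 3, and 2.54 ± 0.06 (adjusted p = 2.49e-12) in SCC25.

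ATF5 (ENSG00000169136, chr19:49928702-49933935, + strand) encodes a relative of ATF4 that is likewise controlled at translation and is known for the mitochondrial unfolded protein response. In SCC15 normalized counts of ATF5 were 799, 852 and 874 with DMSO and 460, 487 and 600 with squamocin. The SCC25 libraries held 282, 316 and 300 with DMSO and 421, 513 and 491 with squamocin. The gene fell in SCC15 and rose in SCC25, without overlap of the treatments in either line. Its change on the log2 scale was -0.71 ± 0.12 (adjusted p = 0.00162) in SCC15, -0.83 without replicate 3, and 0.66 ± 0.09 (adjusted p = 2.14e-05) in SCC25. ATF5 shares 1062 bases of its span with NUP62 and 838 with IL4I1, both on the opposite strand. NUP62 fell in both lines, from 1451 to 1035 normalized counts in SCC15 and from 1704 to 914 in SCC25, and its part in the values of ATF5 was not tested.

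PPP1R15A (ENSG00000087074, chr19:48872392-48876057, + strand) encodes GADD34, the stress-induced subunit that brings a phosphatase to eIF2. Normalized counts of PPP1R15A in SCC15 were 2446, 2373 and 2293 with DMSO and 25097, 24982 and 28523 with squamocin. In SCC25 they were 3304, 3318 and 3465 with DMSO and 26460, 26080 and 26611 with squamocin. The rise was large in both lines and the squamocin means, 26200 and 26384, lay close together, although the counts of each line were scaled separately. The log2 fold change was 3.46 ± 0.10 (adjusted p = 3.04e-06) in SCC15, 3.40 without replicate 3, and 2.97 ± 0.04 (adjusted p = 1.15e-14) in SCC25, the largest of the 10 genes there.

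TRIB3 (ENSG00000101255, chr20:362835-397559, + strand) encodes a pseudokinase that CHOP and ATF4 induce and that restrains ATF4 and AKT. In SCC15 its normalized counts were 513, 508 and 500 with DMSO and 4308, 3807 and 4921 with squamocin. In SCC25 the counts were 1335, 1446 and 1389 with DMSO and 4679, 4841 and 4762 with squamocin. TRIB3 rose in both lines, by a log2 fold change of 3.09 ± 0.11 (adjusted p = 5.50e-06) in SCC15, 3.00 without replicate 3, and 1.78 ± 0.04 (adjusted p = 4.12e-12) in SCC25.

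NUPR1 (ENSG00000176046, chr16:28532708-28539174, - strand) encodes a small stress-induced chromatin protein. Normalized counts of NUPR1 in SCC15 were 394, 343 and 388 with DMSO and 2044, 2034 and 3705 with squamocin. In SCC25 the values were 513, 529 and 484 with DMSO and 1696, 1677 and 1766 with squamocin. NUPR1 rose in both lines, with replicate 3 far above the other SCC15 libraries. Its change on the log2 scale was 2.73 ± 0.23 (adjusted p = 8.69e-05) in SCC15, 2.44 without replicate 3, and 1.75 ± 0.06 (adjusted p = 3.52e-11) in SCC25.

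DDIT4 (ENSG00000168209, chr10:72273920-72276036, + strand) encodes REDD1, which restrains the growth kinase mTORC1 under stress. In SCC15 normalized counts of DDIT4 were 1260, 1100 and 1254 with DMSO and 8185, 8786 and 11071 with squamocin. In SCC25 they were already 15252, 14700 and 14435 with DMSO and 26873, 26093 and 31678 with squamocin. DDIT4 rose in both lines, and its DMSO level in SCC25 lay above its squamocin level in SCC15. The log2 fold change was 2.95 ± 0.13 (adjusted p = 1.07e-05) in SCC15, 2.82 without replicate 3, and 0.93 ± 0.06 (adjusted p = 2.50e-08) in SCC25.

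SESN2 (ENSG00000130766, chr1:28259527-28282491, + strand) encodes sestrin 2, a leucine sensor that also holds back mTORC1. Its normalized counts in SCC15 were 376, 374 and 367 with DMSO and 1260, 1126 and 855 with squamocin. In SCC25 its counts were 686, 710 and 770 with DMSO and 1144, 1027 and 1156 with squamocin. SESN2 rose in both lines, and here replicate 3 was the lowest squamocin library of SCC15. Its change on the log2 scale was 1.52 ± 0.14 (adjusted p = 1.48e-04) in SCC15, 1.68 without replicate 3, and 0.62 ± 0.07 (adjusted p = 2.35e-06) in SCC25.

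CHAC1 (ENSG00000128965, chr15:40952962-40956519, + strand) encodes a glutathione-degrading enzyme known as a sensitive target of ATF4 and CHOP. Normalized counts of CHAC1 in SCC15 were 138, 123 and 110 with DMSO and 197, 178 and 219 with squamocin. The SCC25 libraries held 225, 210 and 235 with DMSO and 202, 202 and 181 with squamocin. Among the 10 genes CHAC1 had the smallest absolute log2 fold change in both lines, with 0.67 ± 0.14 (adjusted p = 0.00476) in SCC15, 0.60 without replicate 3, and -0.19 ± 0.10 (adjusted p = 0.0911) in SCC25. At least 126 reads per library lay behind these values. The calls of CHAC1 depended on the scaling: with equal library totals the log2 fold change was 0.18 (adjusted p = 0.258) in SCC15 and -0.40 (adjusted p = 0.00228) in SCC25.

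**Figure D2:**
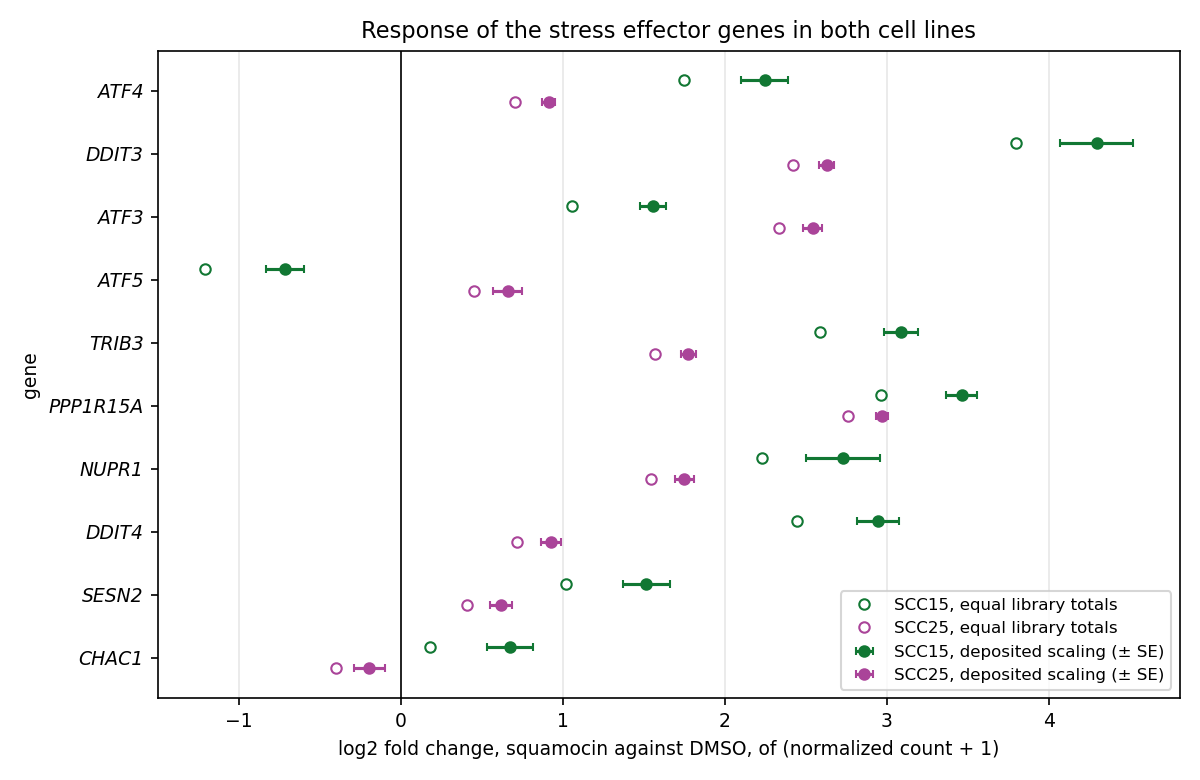
Log2 fold change of squamocin against DMSO for each stress effector gene in SCC15 (green) and SCC25 (magenta), with filled points and SE bars on the deposited scaling and open points with equal library totals. ATF5 lies on opposite sides of 0 in the 2 cell lines on either scaling, and CHAC1 in SCC15 moves from 0.67 to 0.18.

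Squamocin libraries hold larger normalized totals than DMSO libraries, so equal library totals move the median log2 fold change of all genes from 0.012 to -0.48 in SCC15, from -0.015 to -0.22 in SCC25 and, for the difference between the lines, from 0.012 to -0.27. The calls then split into 2357 higher and 8032 lower genes in SCC15 (4921 and 4773 on the deposited scaling), 5032 and 7839 in SCC25 (6335 and 6367), and 2396 and 5452 for the difference (3779 and 3761). With equal totals 8 members rose and 1 fell in SCC15, while in SCC25 9 rose and 1 fell. The members' median was 1.99 in SCC15 and 1.13 in SCC25 with equal totals, a scaling that moves all genes of a line by about the same amount.

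The response differed in size between the cell lines for all 10 genes, tested as a contrast over the 12 libraries with adjustment over 14454 genes. The log2 fold change was larger in SCC15 for 8 members and larger in SCC25 for 2, ATF3 and ATF5. Over all genes, 26.1% were larger in SCC15 and 26.0% in SCC25. Among the 8, the widest gap was that of DDIT4, 2.02 ± 0.16 on the log2 scale (SCC15 minus SCC25, adjusted p = 6.64e-07), followed by DDIT3 with 1.67 ± 0.25 (adjusted p = 1.05e-04), ATF4 with 1.33 ± 0.16 (adjusted p = 1.73e-05) and TRIB3 with 1.31 ± 0.12 (adjusted p = 1.81e-06). Smaller gaps were found for NUPR1, 0.98 ± 0.25 (adjusted p = 0.00532), SESN2, 0.90 ± 0.17 (adjusted p = 6.24e-04), CHAC1, 0.87 ± 0.17 (adjusted p = 9.02e-04), and PPP1R15A, 0.49 ± 0.10 (adjusted p = 0.00125). In the other direction, ATF3 differed by -0.99 ± 0.10 (adjusted p = 6.63e-06) and ATF5 by -1.37 ± 0.15 (adjusted p = 1.21e-05). Without replicate 3 of squamocin in SCC15 the same 8 and 2 calls were made, and the gap of NUPR1 was 0.69 and that of DDIT3 1.38. With equal library totals PPP1R15A kept a difference of 0.20 at an adjusted p of 0.0498, close to the threshold.

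All 10 genes had the larger log2 fold change in the cell line with the lower DMSO level, against 57.1% of all genes tested in both lines, a count in which the DMSO values enter on both sides. To set the lines side by side, levels were also expressed as CPM, reads per 1000000 recovered reads on genes, a scale common to all libraries. DDIT3 stood at 11.4 ± 0.935 (SD, n = 3) in SCC15 and 33.1 ± 0.821 in SCC25 with DMSO, and at 162 ± 41.0 and 177 ± 0.914 CPM with squamocin. TRIB3 went from 32.7 ± 0.356 and 76.0 ± 3.16 to 198 ± 13.9 and 225 ± 3.91 CPM. In both cases the levels of the 2 lines lay closer together after squamocin than before. Without replicate 3 the SCC15 means with squamocin were 138 CPM for DDIT3 and 197 for TRIB3.

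ATF3 and ATF5 started higher in SCC15 and also ended near each other. ATF3 went from 79.6 ± 2.39 in SCC15 and 38.3 ± 3.44 in SCC25 to 167 ± 23.6 and 193 ± 1.29 CPM. ATF5 went from 54.3 ± 2.53 and 16.4 ± 0.949 to 23.4 ± 0.935 and 22.5 ± 2.29 CPM, a fall in one line and a rise in the other that on this scale met within their spread. CHAC1 ended at 9.02 ± 0.556 and 9.23 ± 0.499 CPM, from 7.99 ± 0.900 and 12.2 ± 0.696. SESN2 ended at 50.1 ± 13.9 and 52.5 ± 3.70, and PPP1R15A at 1195 ± 34.2 and 1249 ± 22.9. ATF4 crossed over, from 302 ± 6.14 and 523 ± 2.50 to 1019 ± 92.2 and 852 ± 45.4 CPM. Without replicate 3 the SCC15 means with squamocin were 180.5 CPM for ATF3, 22.9 for ATF5, 9.08 for CHAC1, 57.8 for SESN2, 1213 for PPP1R15A and 966 for ATF4, and that of SESN2 then lay above the SCC25 mean.

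The log2 distance between the 2 lines was smaller with squamocin than with DMSO for 9 of the 10 genes. The median distance went from 0.921 to 0.162, and without replicate 3 it was 0.159 with squamocin, again with 9 genes closer. Over all genes tested in both lines the median distance went from 0.620 to 0.754 and 43.3% came closer, and among the 3196 genes higher in both lines 50.5% did. The exception was NUPR1, whose distance went from 0.20 to -0.52 (log2 of SCC25 over SCC15), and DDIT4 stayed apart, from 3.38 to 1.66. Without replicate 3 the distance with squamocin was -0.28 for NUPR1 and 1.70 for DDIT4, and that of DDIT3 was 0.36 in place of 0.13. These distances are a description on libraries of separate cell lines, built from the same values as the differences above, and carry no test of their own. They also rest on CPM, which sets library totals equal, and the differences between the lines depended on that choice. For ATF5 the difference was -1.665 with equal totals and -1.375 on the deposited scaling, and for CHAC1 0.5792 and 0.8668. How close the levels came on the deposited scaling was not computed.

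**Figure D3:**
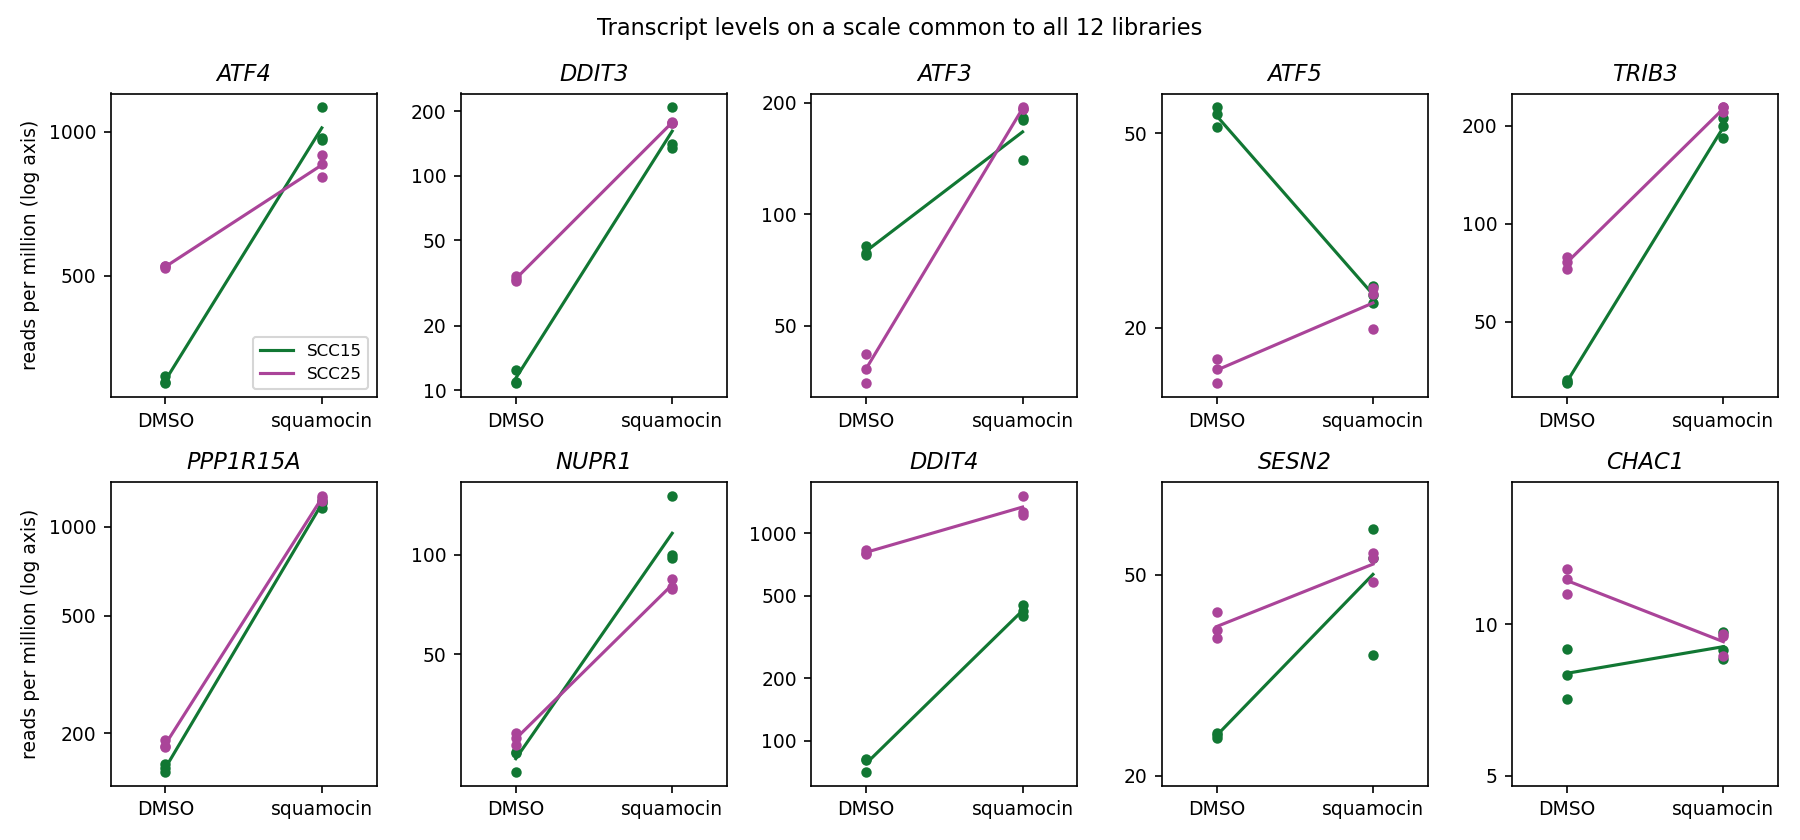
Levels of each stress effector gene in CPM (log axes with a separate range for each gene), for SCC15 in green and SCC25 in magenta, as 1 point per library and lines through the group means. In 9 of the 10 panels the means of the lines are closer with squamocin than with DMSO, with NUPR1 the exception.

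The order of the members was compared as normalized counts per kb of exonic length, taken from all annotated exons of each gene. That length can exceed the length of the transcript expressed, which was not tested. NUPR1 had the longest, 5508 bases, so its place may be too low. With DMSO, ATF4 led in SCC15 with 1794 per kb, followed by PPP1R15A (691) and DDIT4 (569), whereas DDIT4 led in SCC25 with 6986, ahead of ATF4 (3656) and PPP1R15A (979). With squamocin, ATF4 (8623) and PPP1R15A (7632) led in SCC15 with ranges that overlapped, and DDIT4 (13321) led in SCC25 before PPP1R15A (7685) and ATF4 (6888). CHAC1 was the lowest in both lines with squamocin, at 96.5 and 95.0 per kb. DDIT3 moved from place 7 to place 4 in SCC15, where its range overlapped that of DDIT4 (4413 and 2765 per kb), and held place 4 in SCC25. Without replicate 3 neither pair overlapped in SCC15, with 7523 and 7741 per kb for ATF4 against 7277 and 7310 for PPP1R15A, and 3865 and 4148 for DDIT4 against 2158 and 2201 for DDIT3. Neighbours whose libraries overlapped with DMSO were ATF3 and ATF5, and NUPR1 and CHAC1, in SCC15, and CHAC1 and ATF5 in SCC25, and with squamocin SESN2 and NUPR1 in SCC25.

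Close relatives of the members had smaller median changes. For the counts of this and the following lists, 30.9% of all genes tested were higher and 30.0% lower in SCC15. In SCC25 the shares were 38.3% and 38.5%, all on the deposited scaling. With equal totals, 2357 of 15902 genes were higher and 8032 lower in SCC15, and 5032 of 16539 higher and 7839 lower in SCC25. The list counts with equal totals are to be read beside these. Of 10 paralogs, NUPR2 was listed in neither table and DDIT4L only in SCC15, with a rise of 0.71 (log2) whose call was lost with equal totals (0.21, adjusted p = 0.163). In SCC15, 4 of 9 tested paralogs were higher, 3 lower and 2 not called, and in SCC25 6 of 8 were higher, 1 lower and 1 not called, with medians of 0.26 and 0.80. With equal totals the counts were 1 higher and 3 lower in SCC15 and 5 and 2 in SCC25, with medians of -0.23 and 0.59. PPP1R15B, the constitutive eIF2 phosphatase subunit, rose in both lines, from 1698 to 4350 normalized counts in SCC15 and from 2133 to 7350 in SCC25. ATF2 also rose in both, by 0.67 and 0.85 on the log2 scale, of which the first was lost with equal totals (0.17, adjusted p = 0.161), and TRIB2 fell by 0.87 and 1.10. TRIB1 rose by 0.31 and 0.24, calls lost with equal totals (-0.19 and 0.028). Its SCC15 call was also lost with TMM factors (adjusted p = 0.0638), edgeR (0.0610) and the span correction (0.192), and without squamocin replicate 1 or any single DMSO library (0.0716 to 0.132). Its SCC25 call was lost without squamocin replicate 2 (0.111) and without DMSO replicate 1 (0.150) or 2 (0.121). JDP2, a partner and relative of ATF3, had log2 fold changes of 0.25 (adjusted p = 0.0865) and -0.08 (adjusted p = 0.363), and with equal totals was called lower in SCC25 (-0.29, adjusted p = 0.00444).

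CHAC2 and SESN3 were called in opposite directions in the 2 lines. CHAC2, which degrades glutathione more slowly than CHAC1, fell from 109 to 51.1 normalized counts in SCC15 and rose from 89.2 to 158 in SCC25. SESN3, a FOXO-regulated sestrin, had log2 fold changes of -1.52 and 1.44. Its SCC15 means were only 33.0 normalized counts with DMSO and 11.1 with squamocin, the latter from 7 to 11 reads per library. SESN1, a p53-regulated sestrin, had 0.26 (adjusted p = 0.106) in SCC15 and rose by 0.78 in SCC25. The fold change was larger in SCC25 for 4 of 8 paralogs tested, PPP1R15B, CHAC2, SESN1 and SESN3, and larger in SCC15 for 0. Over all genes the shares were 26.0% and 26.1%. The difference of SESN1 was lost with the span correction (-0.32, adjusted p = 0.0838), and with equal totals ATF2 joined the 4 (-0.47, adjusted p = 0.00381). On that scaling 5452 of the 14454 genes had the larger fold change in SCC25 and 2396 in SCC15.

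Upstream, transcripts of the eIF2 kinases and of the mitochondrial relay showed no common direction. Of 12 genes of the sensors, eIF2 and its exchange factor eIF2B, 7 were higher, 2 lower and 3 not called in SCC15, and 4 were higher, 5 lower and 3 not called in SCC25, with medians of 0.34 and -0.11. The SCC25 counts lay near the shares over all genes, 38.3% higher and 38.5% lower (30.9% and 30.0% in SCC15). With equal totals SCC15 had 1 higher and 5 lower, and SCC25 had 1 and 8. On that scaling 2357 of 15902 genes were higher and 8032 lower in SCC15, and 5032 of 16539 higher and 7839 lower in SCC25. EIF2AK3, which encodes PERK, rose from 338 to 696 normalized counts in SCC25 and had a log2 fold change of -0.18 (adjusted p = 0.232) in SCC15, where it was called lower with equal totals (-0.68, adjusted p = 0.0105). EIF2AK2, the gene of PKR, fell by 0.86 on the log2 scale in SCC15 and had -0.12 (adjusted p = 0.0619) in SCC25, where it was called lower with equal totals (-0.33, adjusted p = 8.76e-05), TMM factors (0.0491), edgeR (0.0308) and the span correction (0.0289), and without squamocin replicate 2 (0.00898). EIF2AK4, the gene of GCN2, had -0.01 (adjusted p = 0.940; -0.51 and 0.0240 with equal totals) in SCC15 and fell by 0.29 in SCC25. EIF2AK1, the gene of HRI, rose by 0.48 and 0.18, calls lost with equal totals, where both values lay just below 0.

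DELE1, whose product carries the mitochondrial signal to HRI, rose from 1022 to 1945 normalized counts in SCC15 and fell from 1579 to 1024 in SCC25. The difference of its log2 fold change was 1.55 ± 0.09 (adjusted p = 7.73e-08). OMA1, the protease that releases DELE1, fell in both lines, by 0.98 and 0.84 on the log2 scale. These kinases and relays act by phosphorylation and cleavage, which RNA-seq does not measure.

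Among 11 bZIP partners of ATF4 and CHOP, SCC15 had 9 higher and 1 lower, and SCC25 had 8 and 2, with medians of 1.15 and 0.92. With equal totals they had 7 and 1, and 8 and 3. CEBPB rose from 4586 to 19225 normalized counts in SCC15 and from 3855 to 30989 in SCC25. CEBPD rose by 2.12 and 0.57 on the log2 scale, JUN by 1.95 and 1.38, and NFE2L2, the gene of NRF2, by 0.65 and 1.37, of which the SCC15 call was lost with equal totals (0.15, adjusted p = 0.117). FOS fell in both, from 238 to 100.2 normalized counts in SCC15 and from 3962 to 212 in SCC25. CEBPA had a log2 fold change of -0.22 (adjusted p = 0.617) in SCC15, where it was near the filter, and fell by 1.00 in SCC25. NFE2L1 rose by 0.76 in SCC15 and had -0.07 (adjusted p = 0.312) in SCC25, where it was called lower without squamocin replicate 3 (-0.14, adjusted p = 2.36e-04). With equal totals its SCC15 call was lost (0.27, adjusted p = 0.313) and it was called lower in SCC25 (-0.27, adjusted p = 0.00125).

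Genes known as targets of ATF4 rose in most cases but not as one block. Of 31 tested (FGF21 was under the filter), SCC15 had 24 higher and 6 lower, SCC25 had 21 and 6, 18 were higher in both and 7 were called in opposite directions, with medians of 1.16 and 0.52. Of all genes tested, 30.9% were higher and 30.0% lower in SCC15, 38.3% and 38.5% in SCC25, and 22.1% higher in both. The share of all genes called in opposite directions was not counted. With equal totals SCC15 had 18 higher and 6 lower, SCC25 had 20 and 7, 17 were higher in both and 3 were called in opposite directions. All genes tested then gave 2357 of 15902 higher and 8032 lower in SCC15, and 5032 of 16539 higher and 7839 lower in SCC25. ASNS, asparagine synthetase, went from 30.4 to 425 normalized counts in SCC15 and from 39.9 to 424 in SCC25. GDF15, a secreted stress cytokine, went from 32.4 to 657 and from 3333 to 14247, and HERPUD1, an ER degradation factor, from 1558 to 12861 and from 1197 to 11686. PSAT1, an enzyme of serine synthesis, rose by 1.41 and 2.15 on the log2 scale.

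At the lower end of the ATF4 targets, SLC1A4, a neutral amino acid transporter, fell by 1.15 in SCC15 and had 0.04 (adjusted p = 0.744) in SCC25. PSPH, the last enzyme of serine synthesis, fell by 0.70 in SCC15 and rose by 0.23 in SCC25, and ALDH1L2, a mitochondrial folate enzyme, fell by 1.72 from a mean of only 23.6 normalized counts in SCC15 and rose by 0.36 in SCC25. The call of ALDH1L2 in SCC15 was lost without any single DMSO library (adjusted p from 0.0536 to 0.0833), and that of PSPH in SCC25 with equal totals (0.020, adjusted p = 0.795) and without squamocin replicate 1 (0.0582) or DMSO replicate 3 (0.0517). SLC38A2, a glutamine transporter, rose by 0.72 in SCC15, a call lost with equal totals (0.22, adjusted p = 0.249), and fell by 0.77 in SCC25. NIBAN1 rose by 0.45 in SCC15, a call lost with equal totals and without DMSO replicate 1 or 2 (adjusted p = 0.0625 and 0.0645), and fell from 7175 to 1912 normalized counts in SCC25. VLDLR, a lipoprotein receptor, had 0.20 (adjusted p = 0.416) in SCC15 and fell by 0.81 in SCC25.

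Of 5 genes taken here as CHOP targets, 3 were higher in SCC15 and 4 in SCC25, and 0 were lower in either. With equal totals SCC15 had 2 higher and 1 lower, DNAJC3, and SCC25 had 4 higher and 1 lower, ERO1A. BBC3, the gene of the death protein PUMA, rose from 300.5 to 3239 normalized counts in SCC15 and from 803 to 5403 in SCC25. TNFRSF10B, the death receptor DR5, rose by 0.45 (log2) in SCC15, a call lost with equal totals, and by 0.83 in SCC25. ERO1A, an ER oxidase, rose by 0.72 in SCC15 and had 0.01 (adjusted p = 0.754; -0.19 and 3.02e-04 with equal totals) in SCC25, whereas BCL2L11, the gene of BIM, had 0.06 (adjusted p = 0.704) and rose by 0.44. DNAJC3, an ER co-chaperone, had 0.09 (adjusted p = 0.312) in SCC15 and rose by 1.42 in SCC25; with equal totals its SCC15 value was -0.40 (adjusted p = 0.00654).

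Several members, SESN2 and ATF3 among them, are also known to respond to p53, so 7 p53 targets were counted alongside. BBC3, TNFRSF10B and GDF15, also known as p53 targets, were counted only in the lists above. The 7 genes therefore do not cover the p53 targets as a whole. In SCC15, 2 were higher, 1 lower and 4 not called, and in SCC25 4 were higher and 3 lower. Among all genes 30.9% were higher and 30.0% lower in SCC15, and 38.3% and 38.5% in SCC25. With equal totals SCC15 had 1 higher and 3 lower, and SCC25 again 4 and 3. All genes tested then gave 2357 of 15902 higher and 8032 lower in SCC15, and 5032 of 16539 higher and 7839 lower in SCC25. CDKN1A rose from 4894 to 11691 and from 832 to 5849 normalized counts, MDM2 fell by 0.30 on the log2 scale in SCC15 and rose by 0.80 in SCC25, and BAX rose by 0.67 and fell by 0.36. The SCC15 calls of MDM2 and BAX were lost without any single DMSO library (adjusted p from 0.109 to 0.121 and from 0.0533 to 0.0561), that of MDM2 also without squamocin replicate 2 (0.104) and with the span correction (0.0667), and that of BAX also with equal totals (0.17, adjusted p = 0.296). ZMAT3 had 0.02 (adjusted p = 0.852; -0.47 and 0.0160 with equal totals) in SCC15 and rose by 1.03 in SCC25. FDXR had 0.16 (adjusted p = 0.601) and TP53I3 -0.02 (adjusted p = 0.920; -0.22 and 0.0359 without squamocin replicate 3, -0.52 and 0.00761 with equal totals) in SCC15, and both fell in SCC25, by 0.38 and 1.40. Over the related lists, TP53I3 and EIF2S1, a subunit of eIF2 named after its values were seen, were the SCC15 calls that changed without squamocin replicate 3, both to lower. The paralogs then had 4 higher and 3 lower in SCC15, the upstream genes 7 and 3, the bZIP partners 9 and 1, the ATF4 targets 24 and 6, the CHOP targets 3 and 0 and the p53 targets 2 and 2. Over all 15902 genes tested in SCC15, that fit gave 6103 higher and 5920 lower, against 4921 and 4773 with all libraries.

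**Figure D4:**
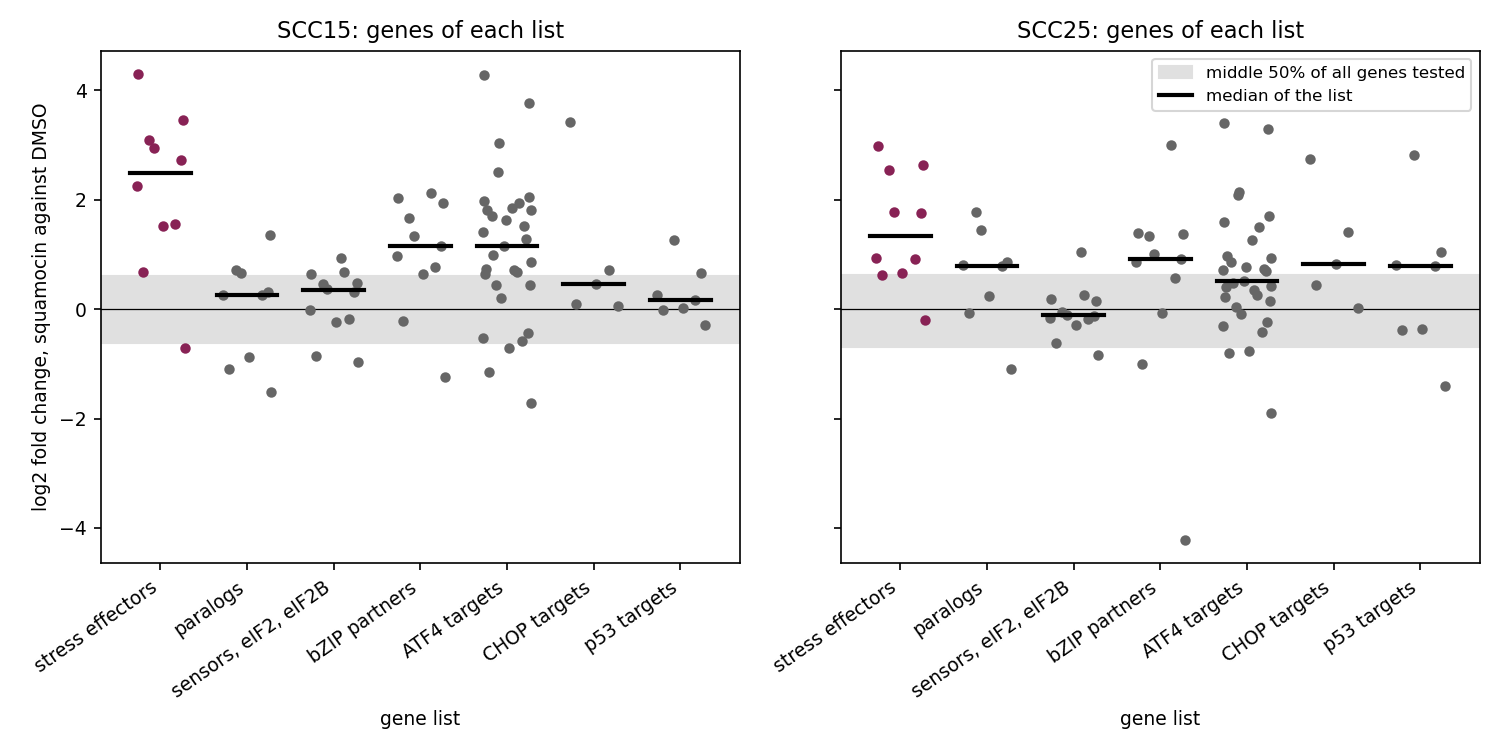
Log2 fold change of squamocin against DMSO for each tested gene of the stress effector list and 6 related lists in SCC15 and SCC25, with a black line at the median of each list and a grey band over the middle 50% of all genes tested. The stress effectors have the highest median in both lines, 2.49 and 1.34, with single genes of other lists as high.

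Over the 12 libraries, the protein-coding genes whose log2 values relative to DMSO lay closest to those of ATF4, among 9697 genes compared, were MANF (root mean square difference 0.10), MAFF (0.108) and ZFPL1 (0.155). MANF had log2 fold changes of 2.19 in SCC15 and 0.78 in SCC25, MAFF of 2.35 and 0.78, and ZFPL1 of 2.33 and 0.71. Closest to DDIT3 were GDF15 (0.298), CDKN1C (0.351) and HSPA5 (0.353), with log2 fold changes in SCC15 and SCC25 of 4.27 and 2.09, 3.66 and 2.47, and 3.70 and 2.88. Without squamocin replicate 3 of SCC15 the nearest to ATF4 were CFB (0.096), MANF (0.0983) and MAFF (0.113), and HSPA5 (0.234), CDKN1C (0.275) and GDF15 (0.307) to DDIT3. On either set of libraries the 3 genes nearest to ATF4 lay closer to it than those nearest to DDIT3 did to DDIT3. By log2 fold change in SCC15, DDIT3 ranked 34 from the top and ATF4 314. Fewer genes lie near a more extreme value, so these distances cannot be compared as a trait of the 2 genes.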

How the data were processed

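Poly(A) or total selection is not given in the sources used here; the labels name total RNA and an NEBNext Ultra kit. Per the submitters' processing notes, reads were aligned to GRCh38 with HISAT2 2.0.5 and counted per gene with featureCounts 1.5.0-p3. As deposited, the signal is a normalized count: the authors scaled the reads of a gene by a size factor of its library, within each table (the SCC25 columns carry the name fpkm but hold these values). The log2 fold changes and p-values that the authors deposited beside them come from their own DESeq2 comparison and were not used.

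Size factors were recovered from the values, and 100% of the values came out whole (within 0.1 read) in each library. Values of log2(normalized count + 1) were compared by limma 3.58.1 (R 4.3.3, trend), two-sided, and p was adjusted (Benjamini-Hochberg) across genes with a mean of at least 10. Alternatives were pseudocounts of 0.1 and 10, 2 other filters, equal library totals, TMM factors, the replicate number as a block, count tests of the recovered reads (edgeR 4.0.16, DESeq2 1.42.0), a correction for gene span, a log2 fold change above 1, and each library left out. CPM, computed here from the recovered reads, were added after the data had been seen. The scripts were tested on simulated data. Exonic lengths were those of GENCODE.

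Members, gene lists and tests were chosen with earlier results of these data known. Named genes were all members, their paralogs, the 6 sensors and relays, the 3 highest and 3 lowest genes of each other list in each cell line, and the 3 genes nearest to ATF4 and to DDIT3. Gene names are current symbols, and MARS is used as deposited. Coordinates are those of the deposited tables. An exact permutation test of 3 against 3 cannot go below 0.1 and was not used. Read counts carry counting error that the 3 libraries per group include.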

Additional observations from a re-analysis of the deposited data

Results flagged for a closer look

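The log2 fold change of squamocin against DMSO differed between the cell lines, by a limma contrast over the 12 libraries, for all 10 members. The differences (SCC15 minus SCC25) were 1.33 for ATF4, 1.67 for DDIT3, -0.99 for ATF3, -1.37 for ATF5, 1.31 for TRIB3, 0.49 for PPP1R15A, 0.98 for NUPR1, 2.02 for DDIT4, 0.90 for SESN2 and 0.87 for CHAC1. ATF5 is the member that was called in opposite directions.

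Among the relatives the differences were -0.43 for PPP1R15B, -1.91 for CHAC2, -0.52 for SESN1 (-0.32 with the span correction, adjusted p = 0.0838) and -2.96 for SESN3, and CHAC2 and SESN3 were called in opposite directions. SESN3 had only 7 to 11 reads per squamocin library in SCC15. Among the sensors and relays they were 0.30 for EIF2AK1 (adjusted p = 0.0284, 0.973 with equal library totals, and above 0.05 in 9 of 12 fits without 1 library), -0.74 for EIF2AK2, -1.22 for EIF2AK3 and 1.55 for DELE1.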

How the results depend on the processing

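The 10 members gave 30 log2 fold changes or differences, and 298 of their 300 values under other settings and 240 of 240 with a library left out kept their direction and side of the threshold. The exceptions were CHAC1 with equal library totals, 0.18 in SCC15 (call lost) and -0.40 in SCC25 (call gained); the cause was not tested. With equal totals 2357 genes were higher and 8032 lower in SCC15, and 2396 differences were larger in SCC15. Requiring a log2 fold change above 1 left 1998 higher and 2320 lower genes in SCC15 and 2293 and 2813 in SCC25, by construction. Count tests of the recovered reads by edgeR gave 4712 higher and 5168 lower genes in SCC15 and 6298 and 6506 in SCC25, and DESeq2 5067 and 4897, and 6093 and 6103.

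Replicate numbers did not pair the libraries (correlations of same-numbered deviations from -0.051 to 0.008), and with them as a block 4665 genes were higher and 4451 lower in SCC15, with no member call changed. The calls of MDM2 and TRIB1 in SCC15 and of the difference of EIF2AK1 were lost.

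Of the other named genes, 20 values turned sign, 23 lost and 12 gained a call in the same direction under other settings, and 12, 30 and 3 with a library left out. Calls of the same direction lost with equal totals were those of ATF2, DDIT4L, NFE2L1, NFE2L2, SLC38A2 and BAX in SCC15, PSPH and TRIB1 in SCC25 and the difference of EIF2AK1. Gained were EIF2AK3, EIF2AK4 and TP53I3 in SCC15 and EIF2AK2, JDP2 and NFE2L1 in SCC25. The span correction added calls of DNAJC3 (0.32), JDP2 (0.32) and SESN1 (0.48) in SCC15 and of EIF2AK2 in SCC25. Without the filter on the mean, TRIB1, MDM2 and the difference of EIF2AK1 lost their calls. Sign changes in SCC15 with equal totals were NIBAN1 -0.05, VLDLR -0.29, BCL2L11 -0.44, DNAJC3 -0.40, TNFRSF10B -0.044, FDXR -0.34, ZMAT3 -0.47, JDP2 -0.24, SESN1 -0.23, TRIB1 -0.19 and EIF2AK1 -0.02, and in SCC25 SLC1A4 -0.17, ERO1A -0.19 and EIF2AK1 -0.028. ZMAT3 in SCC15 was -0.020 with TMM factors and -0.045 with edgeR, and ERO1A in SCC25 was -0.0046 with edgeR. The span correction gave NFE2L1 0.012 and ERO1A -0.0038 in SCC25 and EIF2AK4 0.20 in SCC15. With a library left out the lowest and highest values were -0.045 and 0.16 for BCL2L11, -0.097 and 0.35 for FDXR, -0.033 and 0.062 for ZMAT3, -0.074 and 0.093 for EIF2AK4 and -0.22 and 0.089 for TP53I3 in SCC15, and -0.011 and 0.14 for SLC1A4 and -0.0020 and 0.031 for ERO1A in SCC25. Depth was lowest for CHAC1 among the members, with at least 126 reads per library.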
